A study of Drosophila melanogaster with 3 samples.

Results

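Summits of Eip75B-eGFP ChIP-seq that lie more than 10 kb from every annotated transcription start of a protein-coding gene are described here and called distal summits. A summit is the position of highest signal that the peak caller gave for a region. Of the 7803 summits in the deposited list of optimal peaks, 1141 were distal. The ChIP-seq was made from whole prepupae of Drosophila melanogaster, males and females pooled, of unknown exact age. All animals carried an eGFP exon inserted by MiMIC into an intron of Eip75B, so the endogenous gene made an Eip75B-eGFP fusion, and per the samples' descriptions an antibody against GFP was used for precipitation, while the antibody label gives Eip75B. The labels also point to a possible control experiment, which was not analysed here. The 3 biological replicates of this 1 line form the only group. There is no second genotype, stage or treatment, and values from whole animals mix all cell types.

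Eip75B (E75) is a nuclear receptor induced by ecdysone, the steroid that drives moulting and metamorphosis. It binds heme, represses transcription and opposes the related receptor Hr3, with which it shares a DNA site. In Drosophila, many elements that control developmental genes lie in long introns or between genes, far from the promoter. A ChIP summit is a place where the tagged protein was recovered with the DNA, and does not by itself show that the DNA controls a gene.

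The 3 strongest distal summits whose sequence can be shown lie in introns of osa, CG42238 and gpp, and they introduce the feature of base composition described further on. Each window holds 300 bases of the plus strand of dm6, and the capitals mark the 101 bases centred on the summit. The first is chr3R:17704257-17704556, the second chr2L:21009383-21009682 and the third chr3R:6423973-6424272.
osa: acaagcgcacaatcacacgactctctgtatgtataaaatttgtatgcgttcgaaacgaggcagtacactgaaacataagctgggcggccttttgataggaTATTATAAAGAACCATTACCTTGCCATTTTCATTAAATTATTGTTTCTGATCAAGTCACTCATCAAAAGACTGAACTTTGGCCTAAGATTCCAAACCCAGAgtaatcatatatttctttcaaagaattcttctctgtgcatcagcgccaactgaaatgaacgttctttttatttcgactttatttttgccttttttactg
CG42238: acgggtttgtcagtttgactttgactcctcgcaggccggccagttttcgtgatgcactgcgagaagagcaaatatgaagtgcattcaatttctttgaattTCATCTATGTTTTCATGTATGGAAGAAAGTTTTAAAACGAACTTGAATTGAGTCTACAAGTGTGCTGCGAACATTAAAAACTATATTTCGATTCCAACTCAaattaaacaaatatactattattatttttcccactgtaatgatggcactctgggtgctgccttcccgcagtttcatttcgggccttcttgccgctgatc
gpp: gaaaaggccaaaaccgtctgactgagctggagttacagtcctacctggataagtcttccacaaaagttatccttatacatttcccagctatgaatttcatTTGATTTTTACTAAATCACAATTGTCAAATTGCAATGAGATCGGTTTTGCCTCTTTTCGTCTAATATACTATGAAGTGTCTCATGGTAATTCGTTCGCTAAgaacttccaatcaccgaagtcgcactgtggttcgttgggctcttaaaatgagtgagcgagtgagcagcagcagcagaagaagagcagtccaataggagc
The capitals were 32.7% G or C in osa, against 37.7% in the lower-case bases on both sides. In CG42238 the capitals had 31.7% and the lower-case bases 43.7%. In gpp the capitals had 32.7% and the lower-case bases 46.2%.

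Sites for nuclear receptors are shown next, because they were found at few distal summits. The E75/Hr3 core TAGGTCA was searched on both strands within 50 bp of each summit, and 7 of 1141 distal summits held it. The 5 shown have the match in capitals with 15 bases on each side, written along the strand that reads TAGGTCA.
RhoGEF64C: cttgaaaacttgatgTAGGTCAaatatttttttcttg
CG1789 to Lim1: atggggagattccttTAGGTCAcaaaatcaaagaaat
Drak: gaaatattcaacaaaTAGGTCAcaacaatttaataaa
nAChRalpha2 to nAChRbeta2: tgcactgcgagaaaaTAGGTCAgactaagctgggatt
cv-c: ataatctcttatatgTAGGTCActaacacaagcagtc
The windows lie at chr3L:4719960-4719996, chrX:8755504-8755540, chrX:11521759-11521795, chr3R:24496310-24496346 and chr3R:14458834-14458870, in the order shown. The match lay 6 bp from the summit between CG1789 and Lim1 and 35 to 46 bp from it in the other 4. The site of ftz-f1, CAAGGTCA, was held by 5 distal summits, all shown in the same way.
osa: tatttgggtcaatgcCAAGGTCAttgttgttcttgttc
SKIP: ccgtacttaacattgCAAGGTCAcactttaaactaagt
scrib: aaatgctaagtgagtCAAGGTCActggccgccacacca
CG34398: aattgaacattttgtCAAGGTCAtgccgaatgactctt
jvl: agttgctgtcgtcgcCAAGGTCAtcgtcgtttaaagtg
These lie at chr3R:17705961-17705998, chr3R:22184216-22184253, chr3R:26588316-26588353, chr2L:8919789-8919826 and chr3R:14765700-14765737. Of the 10 summits shown with a match, the strongest was the one in RhoGEF64C, with a signal of 220.1 and rank 2599 of 7803.

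Distal summits made up 14.6% of the optimal list, with an exact 95% interval from 13.8% to 15.4% that covers counting error only. The same number of highest-signal regions was taken from each replicate as its top list. These held 1153 distal summits in replicate 1, 1054 in replicate 2 and 1105 in replicate 3, or 14.2% ± 0.63 (SD, n = 3). In the optimal list, the distance of distal summits to the nearest start had a median of 15656 bp. Its quartiles were 12143 and 21615 bp, and its maximum was 86620 bp. Just inside the limit were a summit between scyl and Dyro at 10004 bp, with a signal of 144.6, and one between CG11550 and CG42693 at 10006 bp, with a signal of 503.5. Just outside were a summit in nmo at 10000 bp, with a signal of 196.5, and one between Ir67c and Gem3 at 9999 bp, with a signal of 93.6. The sources used here give no read numbers, which leaves the depth unknown.

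Distal sequence was less dense in summits than sequence nearer to starts. It covers 39.9 Mb, or 29.8% of the 133.9 Mb in 6 chromosome arms. Distal sequence held 28.6 summits per Mb, against 70.9 per Mb in all other sequence, a ratio of 0.40. In the replicates the density was 28.9, 26.4 and 27.7 per Mb in distal sequence, against 70.8, 71.8 and 71.3 per Mb elsewhere. The ratio was 0.39 ± 0.02 (SD, n = 3), below 1 in all 3 replicates (exact sign-flip permutation test over replicates, two-sided, p = 0.25). That is the smallest p that 3 replicates can give, so no such comparison here can pass 0.05.

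The density just past the limit was slightly lower than that just before it. From 10 to 15 kb from a start it was 48.4 summits per Mb (exact Poisson interval 44.4 to 52.6), against 51.2 per Mb (48.3 to 54.3) from 5 to 10 kb. In the replicates these were 47.1 ± 2.16 and 48.5 ± 1.56 per Mb (SD, n = 3 each), and the paired difference was -1.42 ± 0.82 per Mb, lower from 10 to 15 kb in 3 of 3 replicates (p = 0.25, exact sign-flip permutation test, the smallest p that 3 replicates allow). Density was then 40.2 per Mb at 15 to 20 kb, 34.3 at 20 to 30 kb, 19.8 at 30 to 50 kb and 1.76 beyond 50 kb. The 10.8 Mb beyond 50 kb held 19 summits, with 1.61 ± 0.30 per Mb in the replicates (SD, n = 3). Within 1 kb of a start the density was 122 per Mb.

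**Figure D1:**
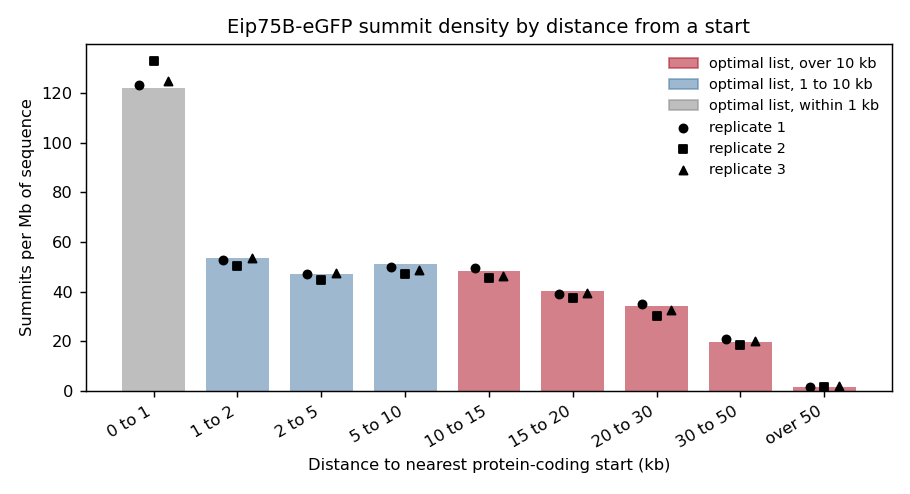
Summits per Mb of sequence (vertical axis) by distance to the nearest protein-coding start in kb (horizontal axis). Bars give the optimal list, red for distal sequence, and points the top lists of the 3 replicates; density is about 50 per Mb from 1 to 15 kb and falls to 1.76 per Mb beyond 50 kb.

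The 5 summits farthest from a start all lay in an intron of hth, which encodes a homeodomain partner of Hox proteins. They were 80945 to 86620 bp from the nearest start. The farthest, at 10527656 on 3R, had a signal of 157.2 and had ranks of 4220 in replicate 1, 4334 in replicate 2 and 4803 in replicate 3. The strongest of the 5, at 10518017, had a signal of 268.0 and ranked 1462, 1773 and 3414. The weakest, at 10532031, had a signal of 105.8 and was in the top list of 1 replicate, with ranks of 8941, 8207 and 5357. The other 4 were in the top lists of all 3.

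Distal summits were somewhat weaker than the others and scarce among the strongest. Signal is the caller's own value, comparable within 1 list only. Its median was 157.4 over the 1141 distal summits, 163.9 over the 3351 summits 1 to 10 kb from a start and 167.2 over the 3311 promoter summits within 1 kb of one. The median percentile rank of distal summits minus that of all others was -5.91, -4.13 and -2.04 points in replicates 1, 2 and 3 (exact sign-flip permutation test, two-sided, p = 0.25). Of the 100 strongest optimal summits, 3 were distal (3.0%, exact interval 0.62% to 8.52%). Of the 500 strongest, 34 were distal, and of the 1000 strongest, 86. Of distal summits, 19.8% fell in the highest of 4 equal groups by signal, against 23.4% of those 1 to 10 kb away and 28.4% of promoter summits.

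Distal summits lay in the top lists of the replicates about as often as the others. The optimal list was made from these same 3 replicates, so this recovery is no independent check of the summits. Over all optimal summits, 65.2% lay in a top-list region of all 3 replicates. Among distal summits 753 of 1141 did (66.0%, exact interval 63.2% to 68.7%), against 65.1% (64.0% to 66.3%) of all others. Of distal summits, 1007 were found in replicate 1, 953 in replicate 2 and 965 in replicate 3, and 6 in none. Recovery in the top lists depended on signal. It was 14.5%, 61.3%, 95.8% and 94.7% of distal summits from the lowest to the highest of the 4 groups by signal, against 11.5%, 59.7%, 92.6% and 96.1% of the others. The top lists are as long as the optimal list, so summits of low signal lie near their cut. In the whole replicate lists of 30000 regions, which include background, recovery was 97.5%, 97.9%, 98.4% and 95.6% of distal summits. For the others it was 93.0%, 95.1%, 97.0% and 96.6%. With top lists of 3901 regions the order of both groups turned, to 30.9% of distal summits against 34.7% of the others.

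The strongest distal summit, at 13035332 on 2R, lay between Su(z)2, a Polycomb group gene, and CG13323, 11924 bp from the start of CG13323. Its signal was 2748, rank 4 of the optimal list, and it ranked 5, 4 and 3 in replicates 1, 2 and 3. The next, in an intron of osa, which encodes a subunit of a SWI/SNF chromatin remodelling complex, had a signal of 2165, and ranks of 12, 12 and 13. Both were near the top of every list. A further osa summit, at 17703502, had a signal of 747.0 and more spread ranks of 272, 432 and 171.

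The intronic summit in CG42238 lay 40566 bp from the nearest start, with a signal of 1072. It ranked 118, 60 and 122 in the replicates. That in gpp, the gene of a histone H3 methyltransferase, lay 17266 bp from a start, with a signal of 1056 and ranks of 136, 75 and 108. Replicate 2 placed both higher than the other two replicates did. The summit between CG7320 and CheA75a had a signal of 907.6, and that between CG43336 and pxb one of 905.9.

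In the gene of the tagged protein, the strongest distal summit was at 18011918 on 3L, in an intron of Eip75B and 12097 bp from its nearest start. Its signal was 850.2 and its ranks were 208, 217 and 158. A summit in an exon of baz, which encodes a cell polarity protein, had a signal of 850.7 and ranks of 220, 102 and 262. The remaining members of the strongest 15 were 6 intronic or intergenic summits with signals from 668.5 to 796.5. They lay in sbb (a transcriptional corepressor), gukh (a synaptic scaffold protein), Snoo (a protein of the Ski/Sno family) and jing (a zinc finger transcription factor), between NijA and CG43245, and between CG13896 and hng3. All 15 were in the top lists of the 3 replicates.

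**Figure D2:**
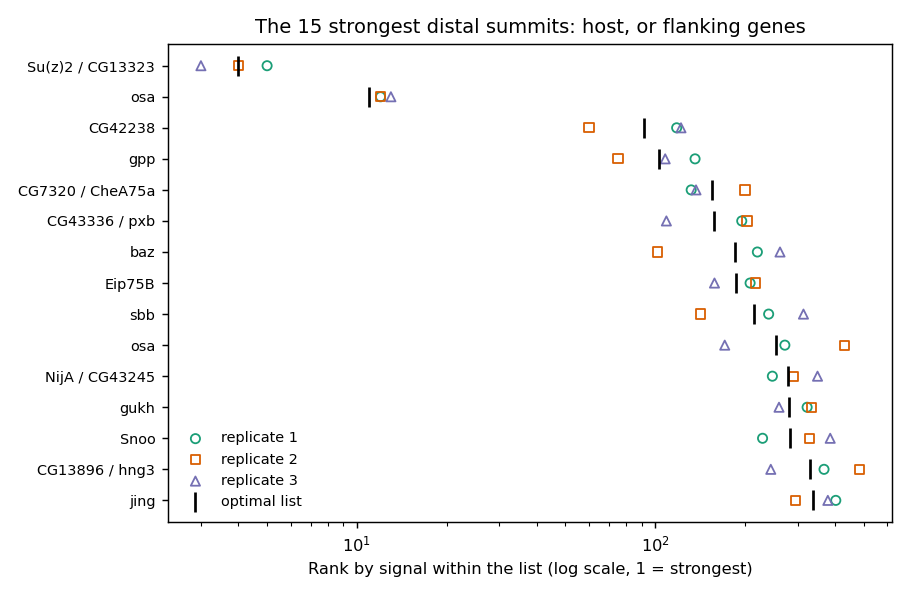
Rank by signal (horizontal axis, log scale, 1 is strongest) of the 15 strongest distal summits, named by host or by flanking genes, from the strongest at the top. Black bars give the rank in the optimal list and symbols the rank in each replicate's list; the first 2 stay within ranks 3 to 13 in every list.

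Distal summits were more often in introns than distal sequence is. Of 1141, 710 (62.2%, exact interval 59.3% to 65.1%) lay in an intron of a protein-coding gene, although introns make up 48.7% of distal sequence. The share was 60.2%, 62.1% and 61.5% in the replicates, above the sequence share by 12.5 ± 0.95 percentage points (SD, n = 3; exact sign-flip permutation test, two-sided, p = 0.25). Between genes lay 426 (37.3%), against 45.8% of distal sequence. In exons lay 5 (0.44%), against 5.48% of distal sequence. These 5 were 2 in baz, 2 in CG12535 (1 of them also within Myc) and 1 in CG46467 and Glut4EF, and were listed after their values were seen. In annotated transposons lay 2 (0.18%, exact interval 0.02% to 0.63%), although these cover 11.1% of distal sequence. Of summit bases, 24.0% were soft-masked repeats in the reference, against 28.9% of distal bases. How well reads can be placed in transposons and repeats was not tested.

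Some distal summits were close to the start of a gene that is not protein-coding. Within 1 kb of such a start lay 82 (7.19%, exact interval 5.76% to 8.84%), against 2.76% of distal sequence. The share was 6.16%, 6.74% and 6.79% in the replicates, above the sequence share in all 3 (exact sign-flip permutation test, two-sided, p = 0.25). The nearest such start was that of an ncRNA gene for 73, of a tRNA gene for 7, of an snRNA gene for 1 and of an snoRNA gene for 1. The strongest was the first osa summit, 712 bp from the start of lncRNA:CR46035, and a strong one in Hr3, with a signal of 655.2, lay 536 bp from that of lncRNA:CR46322. The 5 nearest were weak, with signals from 92.6 to 159.0. They were 10 bp from lncRNA:CR45937, 12 bp from lncRNA:CR44206, 36 bp from snRNA:U1:95Ca, 37 bp from lncRNA:CR43314 and 40 bp from lncRNA:CR45565. Whether these starts were in use in prepupae was not tested.

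The bases at distal summits were poor in G and C and their surroundings were rich. Within 50 bp of the summit the mean was 32.7% GC, against 46.4% in windows of the same width 300 bp to either side and 40.9% over all distal sequence. GC was lower at the summit than in its own flanks in 990 of 1141 (86.8%). The difference was -14.1, -12.3 and -12.8 percentage points in replicates 1, 2 and 3, or -13.1 ± 0.94 (SD, n = 3). It was -10.7 ± 0.81 at summits 1 to 10 kb from a start and -6.28 ± 1.58 at promoter summits. The dip at distal summits minus that at summits 1 to 10 kb away was -2.37 ± 0.15 points, and minus that at promoter summits -6.78 ± 0.65 points, deeper in all 3 replicates (SD, n = 3; exact sign-flip permutation test, two-sided, p = 0.25 for each).

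In the optimal list, the dip was deepest in the group of highest signal and shallowest in that of lowest, with the middle groups alike. From the lowest to the highest of the 4 groups by signal it was -11.1, -13.7, -13.7 and -16.4 percentage points. In the pooled list, 4973 distal regions ranked below the optimal list had a dip of -6.12 points. Intronic distal summits had a dip of -12.8 points and those between genes one of -15.0. At the strongest, between Su(z)2 and CG13323, the summit window had 26.7% GC and its flanks 57.9%. The Eip75B summit was nearer to its surroundings, with 36.6% against 39.6%.

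**Figure D3:**
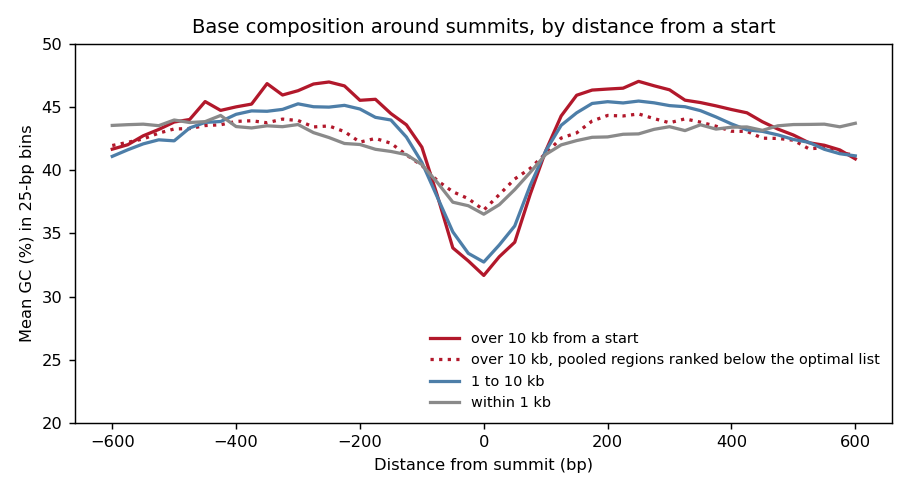
Mean GC in 25-bp bins (vertical axis, percent) by distance from the summit in bp (horizontal axis), for distal summits, distal regions of the pooled list ranked below the optimal list, summits 1 to 10 kb from a start and promoter summits. Distal summits have the deepest dip, with 32.7% within 50 bp of the summit against 46.4% in windows 300 bp away.

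Each of the 14 motifs searched was at a small share of distal summits, at most 2.98%. They were searched as fixed letters on both strands within 50 bp of the summit, and other known sites were not searched. The hexamer AGGTCA, to which many nuclear receptors bind, was at 34 distal summits (2.98%, exact interval 2.07% to 4.14%), against 162 of the others (2.43%). Over all optimal summits 2.51% held it, and of all windows of the same length laid end to end over distal sequence 2.72%. In the flanks of distal summits it was in 11 windows to the left and 18 to the right. In the replicates it was at 2.39% ± 0.29 of distal summits, above the 1.34% ± 0.16 of their flanks in 3 of 3 and above the 2.26% ± 0.04 of other summits in 2 of 3, though lower than these in the optimal list with a limit of 20 kb (SD, n = 3; adjusted p = 0.54 for the second, exact sign-flip permutation test, Benjamini-Hochberg over 14 motifs).

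The E75/Hr3 core, which contains the hexamer, was at 0.61% of distal summits (exact interval 0.25% to 1.26%). Over all optimal summits 0.743% held it, as did 0.53% of the windows over distal sequence, and 2 left and 6 right flanking windows of distal summits. In the replicates it was at 0.33% ± 0.15 of distal summits, against 0.39% ± 0.06 of their flanks, above them in 1 of 3. Of the other summits 0.67% ± 0.09 held it in the replicates, with distal lower in 3 of 3, though in the optimal list the difference turned to higher with limits of 5 and 20 kb and with the starts of all genes (adjusted p = 0.39, exact sign-flip permutation test, Benjamini-Hochberg). CAAGGTCA, the site of ftz-f1, also contains the hexamer. It was at 5 distal summits (0.44%), against 15 of the others (0.23%, higher than distal with a limit of 20 kb) and 0.21% of windows over distal sequence. None of the flanking windows 300 bp to either side of distal summits held it, but positions nearer by did, with 2 matches at -200 to -150 bp, 3 at 100 to 150 bp and 1 each at 50 to 100, 150 to 200 and 200 to 250 bp.

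The DREF, GAGA and E-box motifs, known from promoters, were at a smaller share of distal than of promoter summits. TATCGATA, the site of DREF, a factor of growth and replication genes, was at 0 of 1141 distal summits (exact interval up to 0.32%), at 7 of those 1 to 10 kb away and at 61 of 3311 promoter summits (1.84%). Over all optimal summits 0.871% held it, and of windows over distal sequence 0.24%. In the replicates it was at 0.12% ± 0.05 of distal and 1.12% ± 0.19 of other summits. The GAGA motif GAGAGAG was at 17 distal summits (1.49%), at 49 of those 1 to 10 kb away (1.46%) and at 101 promoter summits (3.05%). Its share at distal summits was thus near that at summits 1 to 10 kb away, and 1.23% of windows over distal sequence held it. In the replicates it was at 1.32% ± 0.24 of distal and 2.31% ± 0.61 of other summits. The E-box CACGTG was at 2 distal summits (0.18%), at 21 of those 1 to 10 kb away (0.63%) and at 35 promoter summits (1.06%). Of windows over distal sequence 1.02% held it, near the share at promoter summits, as did 10 left and 9 right flanking windows of distal summits. Its share at distal summits was thus below that of their own surroundings too. In the replicates it was at 0.51% ± 0.26 of distal and 0.82% ± 0.15 of other summits. GGTCACACT, the site of M1BP, a factor of core promoters, was at 6 distal summits (0.53%), at 3 of those 1 to 10 kb away (0.09%) and at 30 promoter summits (0.91%). In the replicates it was at 0.31% ± 0.15 of distal and 0.50% ± 0.16 of other summits. Each of these 4 motifs was lower at distal than at other summits in 3 of 3 replicates. The E75/Hr3 core, its longer form ANTAGGTCA, the Zelda motif CAGGTAG and the GATA motif AGATAAG were also lower in 3 of 3. In the optimal list, however, the M1BP site was at 0.50% of the other summits. It was in 0.05% of windows over distal sequence, and in 1 left and 1 right flanking window of distal summits.

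CATTCCA, the site of Scalloped, the DNA-binding partner of Yorkie, was the only one of the 14 that was higher at distal than at other summits in all 3 replicates, with 2.00% ± 0.25 against 1.34% ± 0.15 (SD, n = 3). With limits of 5 and 20 kb the replicates no longer all had it higher, and the differences were 0.17 ± 0.17 and 0.19 ± 0.30 percentage points (exact sign-flip permutation p = 0.5 for each). Its adjusted p was 0.39 by the exact sign-flip permutation test with Benjamini-Hochberg adjustment, as for DREF. It was at 24 distal summits, at 18 of the left and 18 of the right flanking windows, and in 1.65% of windows over distal sequence.

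Many distal summits shared their host gene with others. Of 918 protein-coding genes with distal sequence in their body, 267 hosted a distal summit (29.1%). A host is a gene whose body holds the summit, and 715 summits had one. Of the hosts, 111 held 1 summit, 107 held 2 to 4 and 49 held 5 or more. The hosts with 5 or more held 333 summits. The nearest start belonged to a host for 453 of the 715 (63.4%), so hosting and nearness name different genes in the rest. Genes with more distal sequence hosted more often, 7.22% of those with up to 5 kb of it and 54.9% of those with over 50 kb.

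The most were in kirre, whose product is an adhesion molecule of the immunoglobulin family that acts in myoblast fusion. It held 14 distal summits, with 13, 13 and 15 in the replicates, in 160170 bp of distal sequence (0.87 per 10 kb). Tet, which encodes an enzyme of the methylcytosine dioxygenase family, held 13 distal summits, with 11, 15 and 14 in the replicates, at 2.28 per 10 kb. The corepressor gene sbb held 12, with 11, 10 and 10, in only 25473 bp of distal sequence (4.71 per 10 kb). It was the densest of the 299 genes with over 20 kb of distal sequence, of which 160 held none. In plum, a gene of an immunoglobulin-family receptor of neurons, all 12 summits in the body were distal, with 13, 10 and 11 in the replicates.

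SKIP, the gene of a protein that binds Shal potassium channels, held 11, with 11, 9 and 12 in the replicates. CG46467 and Glut4EF overlap and share the same 11, with 9, 11 and 10. The ecdysone receptor coactivator gene tai held 11, with 9, 10 and 12. The 11 in hth were 9, 8 and 12 in the replicates. Snoo held 10, with 12, 12 and 8. Between 7 and 12 of the distal summits of each of these 10 genes lay in the top lists of all 3 replicates.

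**Figure D4:**
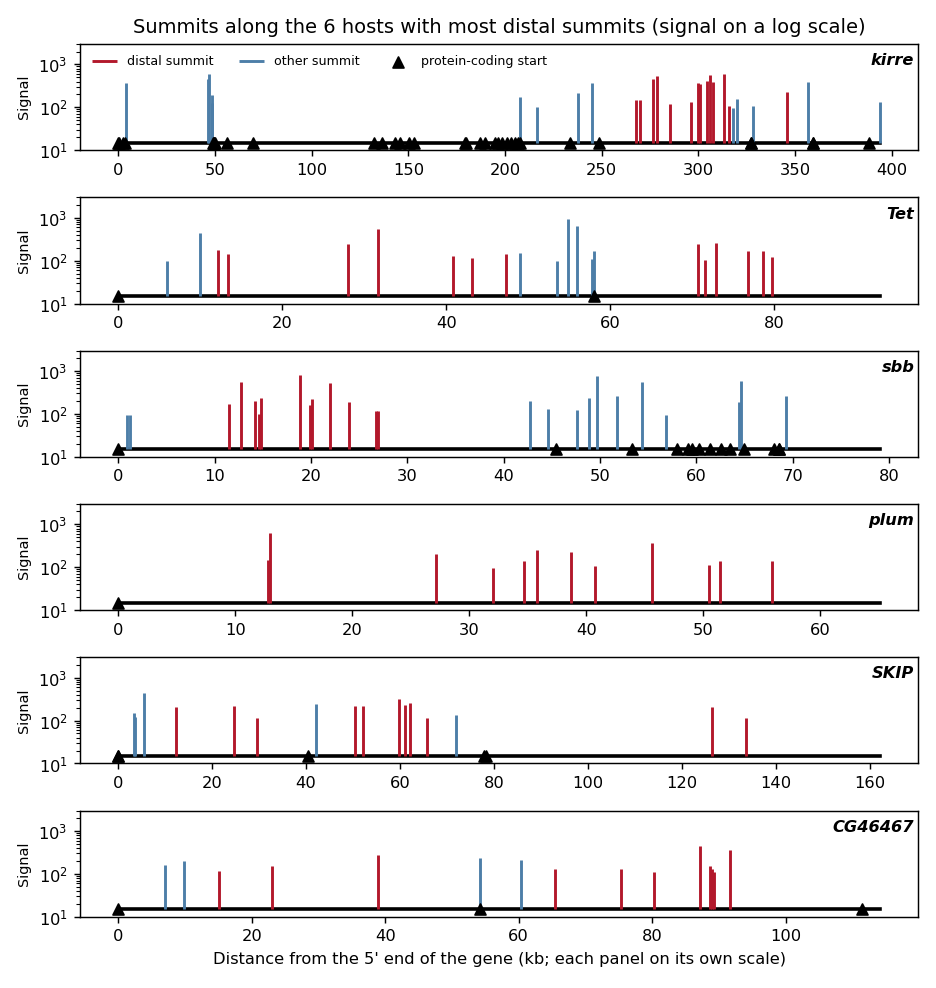
Signal in the optimal list (vertical axes, log scale) of summits along the bodies of kirre, Tet, sbb, plum, SKIP and CG46467, by distance from the 5' end of the gene in kb (horizontal axes, a scale for each gene). Red lines are distal summits, blue lines other summits and triangles protein-coding starts; plum has 12 distal summits and no other, while kirre has 14 of each.

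Counted in windows of 10 kb, the clusters with the most distal summits held 8. One lay between Ids and sty, the gene of an inhibitor of receptor tyrosine kinase signalling, over 9838 bp at 3389566 to 3399404 on 3L. Its signals ran from 248.2 to 661.8, and the replicates held 8, 8 and 7 summits there. Others of 8 were in sbb, over 9243 bp, and between CG7320 and CheA75a, over 8914 bp. Between CG13898 and Sf3b3, 7 summits fell in 4901 bp, and all 7 were in the top lists of the 3 replicates. The 6 distal summits of osa, chosen after their values were seen, spanned 5388 bp. A region can hold several summits, and merging overlapping regions left 1087 distal summits.

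Most genes of the ecdysone hierarchy with distal sequence had distal summits. Of 2420 protein-coding genes with distal sequence in their body or nearest to their start, 24.1% hosted a distal summit or owned the start nearest to one. Of 13 such genes in the ecdysone list, 12 did (92.3%), and 11, 12 and 12 did in the replicates. The list was drawn up with results of these data known, and its members with distal sequence in their body had a median of 25898 bp of it, against 11184 bp over all genes. Of the 299 genes with over 20 kb, 139 hosted a distal summit. Blimp-1, a repressor gene, was the member without one.

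Among the nuclear receptors, Eip75B itself held 6 distal summits, with 6, 7 and 5 in the replicates. Hr4 held 6, with 4, 5 and 7, the strongest at 344.7. In ftz-f1 there were 5, with 5, 4 and 3, none over 198.9. EcR, the ecdysone receptor, held 3, with 3, 4 and 5, the strongest at 327.5. Hr3 held 3, with 3, 3 and 1, and the strongest of these, at 655.2, was shared with the overlapping CG46321 and CG12912. Hr39 held 1, with 1 in each replicate.

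Among the other transcription factors, Eip74EF held 1, with 1, 2 and 2 in the replicates. Eip93F hosted none but owned the start nearest to 4, the strongest at 459.1, with 4, 2 and 3 in the replicates. For br the nearest-start count was 1, with 0, 1 and 1, and the signal 108.3. Of the cofactors, tai had 11 and the corepressor gene Smr 5, with 6, 5 and 5, the strongest at 453.8. Eip63E, a gene of a cyclin-dependent kinase, held 4, with 3, 2 and 2.

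The Hox complexes, which set segment identity, had 4 of 8 genes with a distal summit (50%, beside 24.1% of all 2420 genes), and 4, 3 and 4 in the replicates. Counted as hosts alone, 2 of 6 had one (33.3%), near the 29.1% of all 918 genes with distal sequence in their body. Those 6 had a median of 16682 bp of it, against 11184 bp over all genes. Ubx held 3, with 2, 1 and 3 in the replicates and a highest signal of 216.7, in 58763 bp of distal sequence. Antp held 2 and owned the start nearest to 3, the strongest at 571.7. Dfd owned the start nearest to 4, none over 215.3, and abd-A that nearest to 1, at 117.9. The genes pb, Scr, Abd-B and ftz had none.

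Signalling genes had 15 of 20 (75%, beside the 24.1% of all 2420 genes), and 15 in each replicate. The protocadherin gene ds held 9 distal summits, the Wnt receptor gene fz 7, its relative fz2 5 and pnt, of an ETS factor downstream of Egfr, 5. Patterning transcription factors had 24 of 49 (49.0%), led by hth with 11, jing with 10, and bab1 and luna with 6 each. Adhesion and wiring genes had 17 of 46 (37.0%), led by kirre with 14. They were followed by caps with 6, Sema1a with 5 and Fas3 with 5. Members with distal sequence in their body had a median of 24556 bp of it in the adhesion list and 11738 bp in the patterning list. Over all genes the median was 11184 bp. As hosts alone, 16 of 44 adhesion genes had a distal summit (36.4%), beside 42.1% of all genes with 20 to 50 kb of distal sequence.

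RNA-binding proteins with long genes had 5 of 12 (41.7%, beside the 24.1% of all genes). Members with distal sequence in their body had a median of 50768 bp of it, against 11184 bp over all genes. Among all genes with 20 to 50 kb of distal sequence in their body, 42.1% hosted a distal summit. With over 50 kb, 54.9% did, so 41.7% is not above the share for genes of such length. The translational repressor gene pum had 4, msi 3, heph 2 and Rbfox1 2. Neuronal channels, receptors and cAMP genes had 4 of 31 (12.9%), with 4, 3 and 2 in the replicates. Of these, the cAMP phosphodiesterase gene dnc had 3, the acetylcholine receptor gene nAChRalpha6 2, nAChRalpha5 1 and rg 1, none with a signal over 286.4. Members with distal sequence in their body had a median of 19681 bp of it in the neuronal list and 11851 bp in the signalling list. The differences between lists were not tested.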

How the data were processed

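Eip75B-eGFP ChIP-seq regions of 3 biological replicates of whole prepupae were used. Per the labels, chromatin was sonicated and an antibody against GFP was used, while the antibody label names Eip75B. A possible control experiment that the labels name was not analysed here. The authors deposited narrowPeak lists on dm6, 1 per replicate and 1 pooled, each of 30000 regions that include background, and a list of 7803 optimal peaks after comparison of ranks between replicates (IDR). The signal in the deposited lists is the caller's own value per region and was used only within a list. Each deposited region also has a −log10 q-value from the caller, which was not used. Names of the aligner and peak caller, and the IDR threshold, were not given in the sources used here. Lists on dm3 were not used here.

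The optimal list and the first 7803 regions of the pooled list, ordered by signal, were the same. Summits were the deposited start plus offset, written 1-based. The sequence was the Release 6 assembly of RefSeq, soft-masked, and gene models were Ensembl release 115 (annotation 6.54), with 13945 protein-coding genes on 6 arms. All regions lay within the arm lengths. Every transcript start of these genes counted. From each replicate, the 7803 regions with the highest signal form its top list. Replicates were compared by mean and SD, and paired differences by an exact two-sided sign-flip permutation test. Shares have Clopper-Pearson and densities Poisson intervals at 95%. The sign-flip permutation test gives p = 0.25 whenever all 3 differences have the same sign, whatever their size. The spread between these 3 samples is given by the SD. Scripts used Python 3.11.15, numpy 2.4.6, pandas 2.3.3 and scipy 1.17.1, and were tested on simulated data.

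The members and gene lists were chosen with earlier results of these data known. Named genes are the hosts or flanks of the 15 strongest distal summits, the 10 hosts with the most, the 5 farthest summits, 2 on each side of the limit, the 5 nearest to a non-coding start, the 5 clusters with the most distal summits in 10 kb, all ecdysone and Hox members with a distal summit and up to 4 of each other list. One cluster named by this rule is not reported here. Alternatives were limits of 5 and 20 kb, starts of all genes, merged regions, the 3901 strongest regions and region midpoints. Further ones were a 100 bp motif window, other replicate lists and overlaps, and leaving out each replicate. Leaving out a replicate kept the optimal summits that lay in the top lists of both others. The optimal list itself still rested on all 3 replicates.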

Additional observations from a re-analysis of the deposited data

How the results depend on the processing

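Of 139 recomputed values, 127 kept the direction of a difference, whatever its size, or for the host count stayed within 1.5 times and for shares and recovery within 1 SD of the replicates. A further 7 moved past these limits, among them a recovery difference that changed sign, and 5 motif differences reversed. The share of distal summits was 28.9% with a limit of 5 kb, 4.41% with 20 kb, 9.23% with the starts of all annotated genes and 13.8% in the 3901 strongest regions. Leaving out each replicate gave shares from 14.5% to 15.1%. Here the optimal summits found in the top lists of both other replicates were kept, so the omitted replicate still shaped the optimal list. Host genes numbered 504 with a limit of 5 kb, which included the 267, and 89 with 20 kb, all among them. Distal recovery minus that of the others was 0.88 percentage points and became -3.75 with top lists of 3901 regions. In the optimal list, the difference for the E75/Hr3 core, distal minus other summits, was -0.15 points. It reversed there to 0.14 with 5 kb, 0.13 with 20 kb and 0.10 with the starts of all genes. The mean over replicates reversed with 5 kb alone, to 0.10 ± 0.05 points. It stayed negative with 20 kb, at -0.24 ± 0.14, and with the starts of all genes, at -0.16 ± 0.08 (SD, n = 3 each). The difference for AGGTCA, 0.55 points, reversed to -0.50 with 20 kb, and that for the site of ftz-f1 reversed to -0.27. The cause of these reversals was not tested.

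The density ratio stayed below 1 throughout, from 0.23 to 0.54. Its highest value, 0.54, came without sequence over 50 kb from a start, and with unmasked sequence alone it was 0.46, both chosen after seeing the data. Intron excess ran from 11.4 to 26.6 points, GC difference from the other summits from -2.84 to -1.60 points, and signal percentile difference from -7.34 to -3.66 points. The difference for the site of Scalloped ran from 0.15 to 1.22 points, and those for the DREF, GAGA and E-box motifs stayed below 0. Leaving out 1 replicate in this way, with the optimal list unchanged as source, turned no difference round, but moved several by over 1.5 times. Distal minus other, GAGA was -0.76 points, against -0.10 without replicate 2 and -0.39 without replicate 3. AGGTCA became 1.17 without replicate 1 and 0.32 without replicate 2, and the E75/Hr3 core -0.28 and -0.23. The site of ftz-f1, at 0.21, became 0.36 without replicate 1 and 0.12 without replicate 3. Signal percentile became -5.70 without replicate 2 and -6.47 without replicate 3. With the starts of all genes as the limit, no distal summit can lie near a non-coding start, so that share has no value there. All tested differences were paired within replicates, and 1 group allows no replicate block between groups. The unknown read depth limits all these values to the lists as deposited.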

Other observations

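Distal density differed between chromosome arms. It was 39.5 distal summits per Mb of distal sequence on 2L (exact Poisson interval 34.6 to 44.9), 30.9 on 3L, 29.6 on 3R, 26.6 on X and 18.6 on 2R (15.6 to 21.8). The replicates gave 39.2 ± 1.88 on 2L and 17.5 ± 0.89 on 2R (SD, n = 3 each). Chromosome 4 held 3 distal summits. These densities count all distal sequence of an arm, with soft-masked bases and the sequence beyond 50 kb from a start. Over all arms the latter is 10.8 Mb with 1.76 summits per Mb. Densities per arm without such sequence were not computed, and the cause of the difference between arms was not tested.

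Between genes, 156 intervals held the 426 distal summits, and 25 intervals held 5 or more. The intervals with the most, chosen after their values were seen, were between Or67d, an odorant receptor gene, and CG12362, with 14 distal summits and 11, 12 and 15 in the replicates, and between NijA and CG43245, with 13, and 18, 15 and 13 in the replicates.

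The genes with the most distal sequence and no distal summit, also chosen after their values were seen, were Myo81F with 1955856 bp, Pzl with 699420 bp and lovit with 424040 bp. None had a distal summit in the top list of any replicate. How well reads can be placed in these genes was not tested. The RNA-binding protein gene bru3, with 238920 bp, had none either.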
